A study of Mus musculus with 12 samples.

Results

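Raising the dose of 6-shogaol was compared with raising the dose of 6-gingerol, phenols of ginger, in mouse BV2 cells activated with lipopolysaccharide (LPS). The dose step of a compound was the log2 level of a gene at 30 µM minus its log2 level at 10 µM. The quantity examined was the 6-shogaol dose step minus the 6-gingerol dose step, called the step difference from here on. It was computed for every expressed gene from 8 of the 12 libraries of the series, which form 4 groups of 2: 6-gingerol at 10 µM (6G-10) and 30 µM (6G-30), and 6-shogaol at 10 µM (6S-10) and 30 µM (6S-30). The 2 untreated libraries and the 2 given LPS alone entered neither the step difference nor its error. Cells of all 8 libraries received 100 ng/mL LPS 1 h after the compound, in medium that had held no serum for at least 4 h. No label gives the time from LPS to harvest, or says whether replicates were separate cultures, so p-values measure the spread between these samples. Cells given a compound without LPS were not analysed here. BV2 is an immortalized microglial line, and 1 line stands for microglia throughout.

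The compounds differ at 1 position of the side chain: 6-gingerol is a β-hydroxy ketone, and loss of water turns it into 6-shogaol, an α,β-unsaturated ketone that can bind thiols. LPS is sensed by TLR4, which activates NF-kB and interferon regulatory factors and so induces cytokines, chemokines and antiviral genes. Thiol-reactive compounds are known to release the factors NRF2, which drives genes for glutathione and NADPH, and HSF1, which drives chaperones. ATF4 drives a separate stress program when translation initiation is restrained, and E2F factors drive the genes of DNA replication.

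The 8 libraries held 16534960 to 19876803 expected counts. Among microglial markers, Cd68 ran from 658.7 to 892.5 CPM (counts brought to equal library size with TMM factors), Csf1r from 287.6 to 577.4 and Itgam from 166.1 to 211.3. Markers of resident microglia were scarce: Tmem119 reached 5.91 CPM at most, Cx3cr1 0.88, P2ry12 0.657 and C1qa 0.222. The 9 neuron markers summed to at most 0.437 CPM in any of the 8 libraries. The 9 astrocyte markers summed to 12.2 to 16.5 CPM in the 6G-10, 6G-30 and 6S-10 libraries and to 10.2 and 8.71 CPM in 6S-30. Nearly all of that sum was the gap junction gene Gja1, which ran from 8.6 to 16.4 CPM, while Aqp4, Slc1a3, Aldh1l1, Fgfr3 and S100b were at 0. Mean fragment lengths ran from 223.1 to 252.3 bases. A first principal component with 47.1% of the variance set 6S-30 (39.08 and 40.02) apart from 6S-10 (-4.46 and -4.99), 6G-30 (-16.71 and -14.59) and 6G-10 (-20.26 and -18.09). On the second component (13.2%) replicate 2 lay above replicate 1 in each of the 4 groups, by the least in 6S-10 (-9.51 against -16.86) and by the most in 6G-10 (17.79 against -5.79). Replicate 1 of 6G-10 stood alone on the third component (12.1%), at 27.65, while the other 7 ran from -14.81 to 4.73.

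The dose step depended on the compound at 1468 of 12512 genes tested (11.7%) by the edgeR quasi-likelihood test at a Benjamini-Hochberg adjusted p under 0.05, which is the threshold for a call throughout. The step difference was higher, that is, in favour of 6-shogaol, at 786 genes (6.28%) and lower at 682 (5.45%). At 118 of the higher and 197 of the lower genes it was at least 2-fold, and its median over all genes tested was 0.00. The last gene called was the lysosomal enzyme gene Naglu (-0.53, adjusted p = 0.05) and the next, not called, was the pseudogene Pcna-ps2 (1.19, adjusted p = 0.0501). When libraries were scaled by their totals, the calls split into 389 higher and 1246 lower and the median over all genes moved by -0.143 on the log2 scale, so directions are relative to the bulk of genes. Without replicate 1 of 6G-10 the count was 1089. It was 552 without replicate 2 of 6S-10, 690 without replicate 1 of 6G-30, 784 without replicate 2 of 6S-30 and 837 without replicate 1 of 6S-10.

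The parts of the step difference were called to very different extents, and since they share libraries they are given side by side. From 10 to 30 µM of 6-shogaol 2796 genes changed (22.3%), 1437 upward (11.5%) and 1359 downward (10.9%). From 10 to 30 µM of 6-gingerol 1 gene changed (0.00799%), the mitochondrial mt-Nd3, with 581 genes (4.64%) at an unadjusted p under 0.05. DESeq2 called 6 genes for that step. The compounds were compared at both matched doses. At 10 µM 6-shogaol differed from 6-gingerol at 192 genes (1.53%), 49 higher (0.392%) and 143 lower (1.14%), a split that turned to 171 higher and 81 lower when libraries were scaled by their totals. At 30 µM it differed at 3491 genes (27.9%), 1752 higher (14.0%) and 1739 lower (13.9%). The count at 10 µM was 34 without replicate 2 of 6S-10, 64 without replicate 1 of 6S-10, 77 without replicate 1 of 6G-10 and 332 without replicate 2 of 6G-10. The 6-shogaol step gave 1243 calls without replicate 2 of 6S-10, 1567 without replicate 1 of 6S-10 and 1599 without replicate 2 of 6S-30, and the compounds at 30 µM gave 2249 without replicate 1 of 6G-30.

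**Figure D1:**
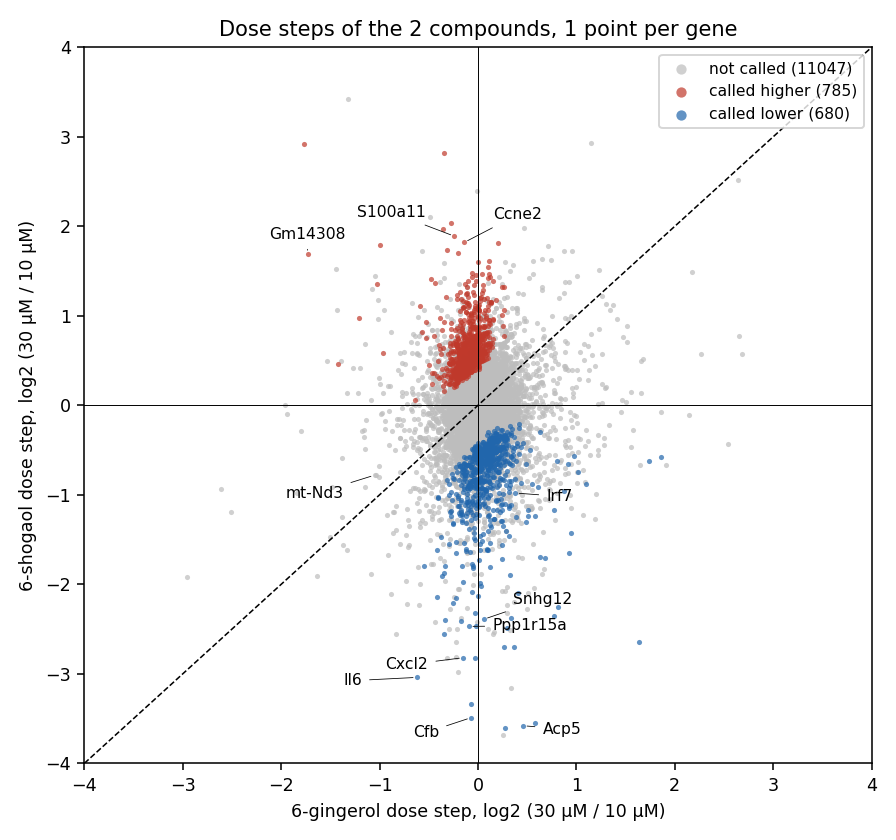
Each point is a gene, with its 6-gingerol dose step on the horizontal axis and its 6-shogaol dose step on the vertical axis, both as log2 of 30 over 10 µM, with a few genes beyond the axis ends left out. Red and blue mark genes called higher and lower for the step difference and the dashed line marks equal steps: called genes spread along the vertical axis, with Cfb at -3.49 for 6-shogaol and -0.07 for 6-gingerol.

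Among the genes called, most of the movement lay in the 6-shogaol step. Genes with a higher step difference had a median 6-shogaol step of 0.58 and a median 6-gingerol step of -0.10, and genes with a lower one had medians of -0.69 and 0.08. The 6-gingerol step lay within 0.25 of 0 on the log2 scale at 1253 of the 1468 genes (85.4%), went with the 6-shogaol step at 29 (1.98%) and against it at 186 (12.7%). Over all 12512 genes tested the 6-gingerol step ran from -0.29 to 0.36 between the 5th and 95th percentiles. Small 6-gingerol steps were thus not particular to the genes called. At 10 µM the compounds lay within 0.25 of each other at 601 of the 786 higher genes (76.5%) and at 411 of the 682 lower genes (60.3%). A further 125 of the lower genes (18.3%) were already lower with 6-shogaol at 10 µM by at least 0.25. Of the higher genes 20 (2.54%) were already higher. More genes lay on the opposite side by at least 0.25: 146 of the lower genes were higher with 6-shogaol at 10 µM, and 165 of the higher genes were lower. The median difference of the compounds at 10 µM was 0.05 for the lower genes and -0.11 for the higher genes. These shares describe how the called genes are built up and carry no test.

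Secreted mediators of the LPS response made up the list with the lowest median step difference among those with more than 3 measured members. Lists, here and below, were chosen with earlier results of these data known, so counts set beside shares over all genes are descriptions. Of 20 measured cytokine and chemokine genes 10 were lower and 0 higher, against 5.45% and 6.28% of all genes, with a median of -1.24. From 10 to 30 µM of 6-shogaol 17 of them fell, against 10.9% of all genes (median -1.22). For 6-gingerol 0 were called (median -0.21). At 10 µM 12 of the 20 were already lower with 6-shogaol than with 6-gingerol, against 1.14% of all genes (median -0.78). Cxcl2, a neutrophil chemokine (ENSMUSG00000058427, chromosome 5, 90903871 to 90905938), was at 72.5 and 65.3 CPM in 6G-10, 60.2 and 64.1 in 6G-30, 41.0 and 38.4 in 6S-10, and 5.06 and 6.18 in 6S-30. The 6-gingerol groups differ little beside the gap between the 6-shogaol groups, which do not overlap. Its step difference was -2.67 (SE 0.18, 95% interval -3.04 to -2.30, adjusted p = 5.75e-08).

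Il6, a pro-inflammatory cytokine (ENSMUSG00000025746, chromosome 5, 30013114 to 30019981), was at 173.3 and 162.2 CPM in 6G-10, 101.0 and 117.7 in 6G-30, 32.8 and 25.5 in 6S-10, and 2.92 and 4.1 in 6S-30. The 4 groups do not overlap, so Il6 stood lower at the higher dose of either compound. The 6-shogaol step was -3.04 and was called, while the 6-gingerol step of -0.62 (95% interval -0.88 to -0.35) was not (adjusted p = 0.756). Its step difference was -2.42 (SE 0.22, adjusted p = 3.55e-06). Ccl2, a monocyte chemokine, had a step difference of -1.93 and Ccl5, which draws T cells, one of -2.0. Tnf, the early cytokine of the response, was at 157.1 and 151.9 CPM in 6G-10, 133.6 and 136.6 in 6G-30, 89.1 and 96.7 in 6S-10, and 40.1 and 40.8 in 6S-30, a step difference of -1.01.

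Cxcl10, an interferon-inducible chemokine, was among the 12 members lower with 6-shogaol at 10 µM, but its steps differed less. It was at 220.9 and 250.0 CPM in 6G-10, 181.7 and 223.3 in 6G-30, 83.0 and 82.0 in 6S-10, and 51.1 and 58.0 in 6S-30. The compounds already differed by -1.51 at 10 µM and by -1.89 at 30 µM, both called, and the step difference of -0.38 (95% interval -0.71 to -0.05) was not called (adjusted p = 0.124). Il1b, the interleukin 1 beta gene, stayed at or under 1.37 CPM in the 8 libraries, and a step difference with an interval of -2.95 to 0.10 was not detectable at this depth.

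Promoter sequence of genes from the list is shown because NF-kB is the factor best known for driving them. Whether NF-kB took part in the step difference was not tested. The stretches are from RefSeq on GRCm38.p6, written on the strand of the gene, with any match to the kappaB consensus in capitals. Cxcl2 lies at chr5:90903783-90903832 on the plus strand and Il6 at chr5:30013050-30013099 on the plus strand.
Cxcl2: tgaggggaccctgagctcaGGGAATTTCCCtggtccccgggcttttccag
Il6: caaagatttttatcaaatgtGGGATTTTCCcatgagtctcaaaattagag
The matches end 87 and 35 bases before the start annotated in RefSeq, which for Cxcl2 is not the gene start given above. In Cxcl2 the capitals cover overlapping matches, and the distance is that of the nearest to the start. The kappaB consensus was searched on both strands of the 250 bases before the start. A match was found for 6 of 13 cytokine and chemokine genes with a window (46.2%), for 14.7% of genes with a lower step difference, 9.17% of those with a higher one and 10.3% of the 9334 tested genes with a window.

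Inflammatory effectors are the enzymes, acute-phase proteins and receptors that LPS induces. Of 27 measured members 9 were lower and 2 higher, against 5.45% and 6.28% of all genes, with a median of -0.36, and the other 16 were not called. Cfb, complement factor B (ENSMUSG00000090231, chromosome 17, 34856374 to 34862518), was at 227.0 and 240.4 CPM in 6G-10, 226.1 and 218.2 in 6G-30, 87.9 and 80.3 in 6S-10, and 7.61 and 7.31 in 6S-30. Replicates lay close together, the 6-gingerol doses lay side by side without overlap, and the 6-shogaol doses were far apart. The step difference of -3.42 (SE 0.15, 95% interval -3.73 to -3.11, adjusted p = 7.29e-11) came on top of a compound difference of -1.47 at 10 µM.

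The scavenger receptor gene Marco was at 279.6 and 281.0 CPM in 6G-10, 261.0 and 281.4 in 6G-30, 170.0 and 173.0 in 6S-10, and 50.4 and 49.0 in 6S-30, a step difference of -1.74. Coagulation factor X, encoded by F10, differed in its steps by -1.71, but not between the compounds at 10 µM (-0.10, 95% interval -0.34 to 0.13). The acute-phase gene Saa3 had a step difference of -1.51. Nos2, the inducible nitric oxide synthase gene, was at 177.7 and 185.5 CPM in 6G-10, 190.0 and 160.9 in 6G-30, 115.4 and 147.0 in 6S-10, and 46.2 and 28.1 in 6S-30. Its replicates were far apart in 6S-30 and, less so, in 6S-10. The step difference of -1.77 (adjusted p = 0.0145) was not called without either 6G-10 library, without replicate 1 of 6G-30 or with the replicate number as a block. Over all 18 alternatives it ran from -2.18 to -1.46.

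Genes of arachidonate metabolism split. Ptgs2, the inducible cyclooxygenase gene, was at 88.9 and 84.0 CPM in 6G-10, 67.4 and 69.0 in 6G-30, 52.8 and 54.9 in 6S-10, and 14.8 and 14.7 in 6S-30, a step difference of -1.52. The higher members of the list were Pla2g4a, the phospholipase that releases arachidonate (0.75), and Alox5ap, which presents it to 5-lipoxygenase (0.70). Both rose from 10 to 30 µM of 6-shogaol, by 0.56 and 0.58.

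Within the NF-kB pathway 9 of 29 measured genes were lower and 0 higher, against 5.45% and 6.28% of all genes. The median step difference was -0.30. Traf1, an adaptor of TNF receptors, was at 43.8 and 35.5 CPM in 6G-10, 33.3 and 29.3 in 6G-30, 17.2 and 16.3 in 6S-10, and 2.98 and 2.7 in 6S-30, a step difference of -2.22 (SE 0.22). The subunit genes Relb and Nfkb1 had step differences of -0.88 and -0.68. Nfkbia, the inhibitor gene that NF-kB itself induces, was not called: its step difference was -0.06 (95% interval -0.35 to 0.23) and the compounds differed by -0.12 at 10 µM and -0.18 at 30 µM, neither called. At 10 µM the compounds differed at 2 genes of the list, Traf1 (-1.24) and Cd40 (-0.67), which encodes a co-stimulatory receptor and is named after its values were seen.

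**Figure D2:**
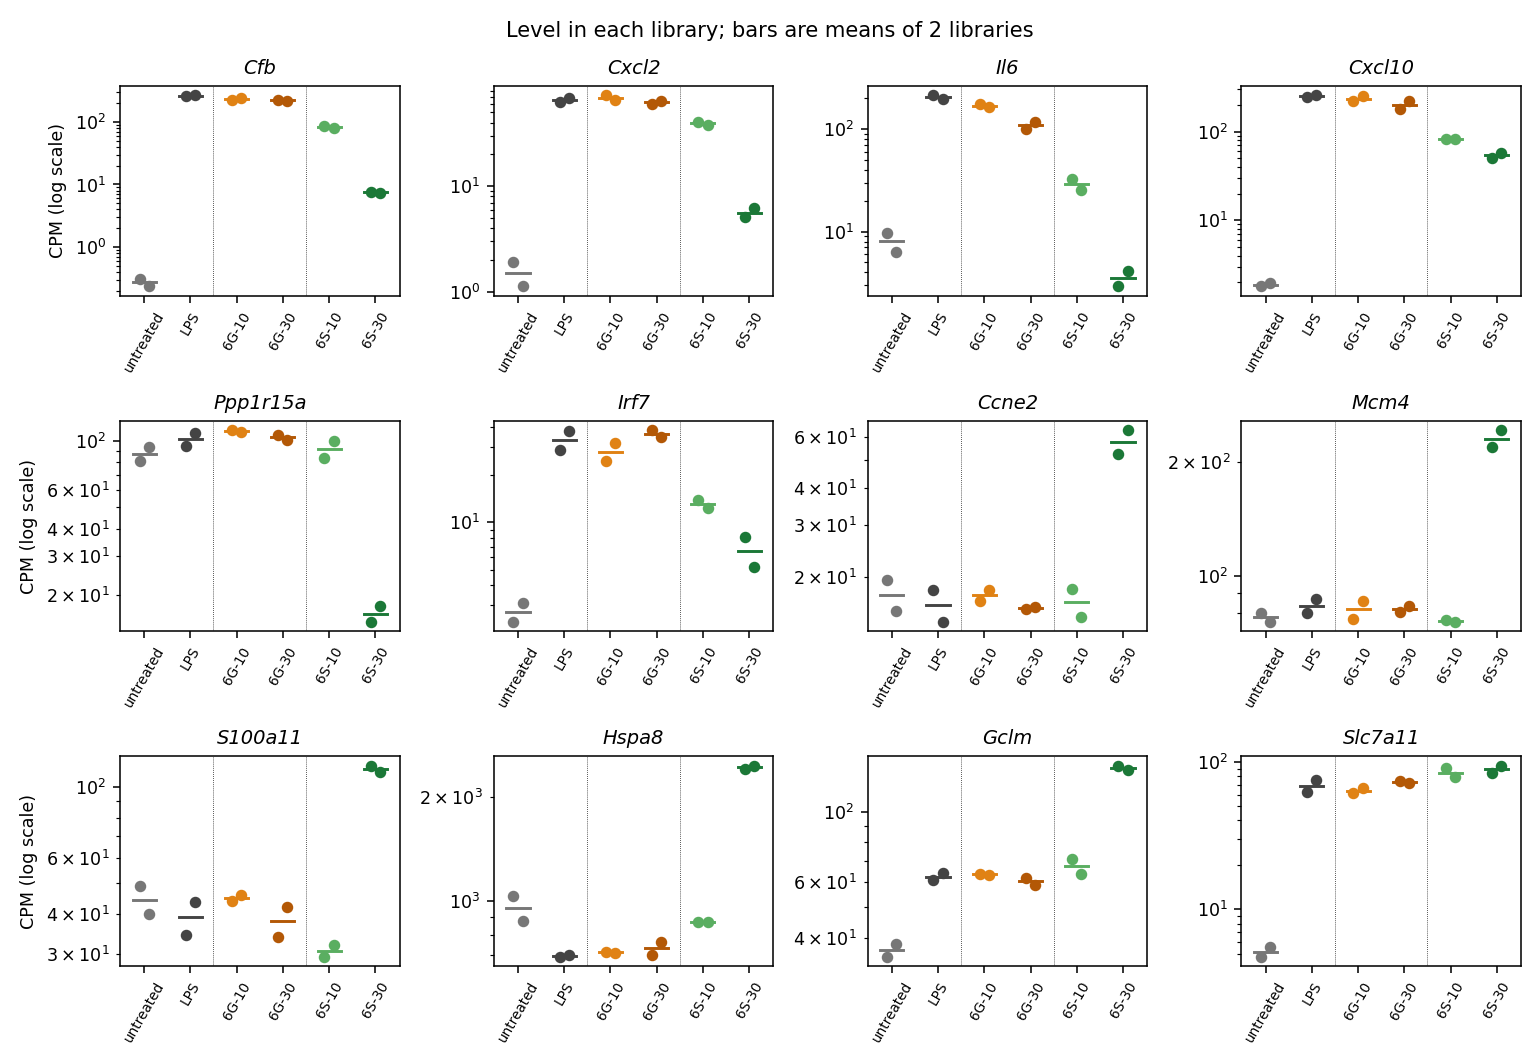
Level of 12 genes in every library in CPM on a log axis, with 1 dot per library and a bar at the mean of each group of 2; the untreated and LPS groups are shown for orientation. Cfb, Cxcl2 and Il6 drop between 6S-10 and 6S-30, Cxcl10 is already low in 6S-10, Ppp1r15a is low in 6S-30, and Ccne2, Mcm4, S100a11, Hspa8 and Gclm stand high in 6S-30.

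The groups outside the step difference give these levels a scale. LPS alone took Cfb from 0.308 and 0.233 CPM in untreated cells to 260.6 and 266.6, Cxcl2 from 1.9 and 1.12 to 63.0 and 68.7, and Il6 from 9.76 and 6.33 to 212.2 and 193.7. In 6S-30 Il6 (2.92 and 4.1) lay under the untreated libraries, while Cfb and Cxcl2 lay above them. Ppp1r15a was at 80.7 and 93.8 CPM in untreated cells and 94.9 and 108.3 with LPS alone, so 6S-30 lay under both. Ccne2, at 19.5 and 15.3 untreated and 18 and 14.1 with LPS, and Mcm4, at 80.0 and 75.8 untreated and 79.7 and 86.8 with LPS, lay in 6S-30 above both. Hspa8 was at 1038.2 and 877.9 CPM untreated and 694.4 and 700.6 with LPS. No comparison with these groups was tested here.

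Genes of the type I interferon response differed between the compounds by a median of -0.67 at 10 µM and -1.0 at 30 µM. At 10 µM 18 of 39 measured members were lower with 6-shogaol, against 1.14% of all genes. At 30 µM 25 were lower, against 13.9%. How the 10 µM calls of this list varied with the libraries used was not examined. The step difference was lower at 11 members and higher at 1, against 5.45% and 6.28% of all genes, with a median of -0.43. The count of lower members was 4 without replicate 2 of 6S-30, 6 without replicate 1 of 6G-30 and 7 without replicate 2 of 6S-10. The guanylate-binding protein gene Gbp2 was at 15.3 and 16.9 CPM in 6G-10, 12.7 and 13 in 6G-30, 6.27 and 8.02 in 6S-10, and 1.95 and 2.19 in 6S-30, a step difference of -1.46. Isg15, a ubiquitin-like modifier, differed between the compounds by -1.48 at 10 µM and had a step difference of -0.77 (adjusted p = 0.0123), which was not called without replicate 1 of 6G-30 or replicate 2 of 6S-30.

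Irf7, a transcription factor that amplifies interferon production (ENSMUSG00000025498, chromosome 7, 141262706 to 141266481), was at 24.3 and 31.8 CPM in 6G-10, 38.1 and 34.7 in 6G-30, 13.8 and 12.3 in 6S-10, and 8.04 and 5.23 in 6S-30. It stood higher at the higher dose of 6-gingerol and lower at the higher dose of 6-shogaol. The 6-shogaol step of -0.98 was called and the 6-gingerol step of 0.38 (95% interval 0.05 to 0.70) was not. The step difference was -1.35 (SE 0.25, adjusted p = 0.00243). The member with a higher step difference was Ifit2, an antiviral gene, at 0.54 (adjusted p = 0.0301). It was called in 10 of 18 alternatives. The interferon-stimulated response element core GAAANNGAA stood before 10.2% of genes with a lower step difference, 5.56% of those with a higher one and 7.31% of all tested genes with a window.

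Of 36 measured genes of the ATF4 stress program 16 fell and 0 rose from 10 to 30 µM of 6-shogaol. Over all genes 10.9% fell and 11.5% rose. The step difference was lower at 12 and higher at 0, against 5.45% and 6.28% of all genes, with a median of -0.37. At 10 µM the compounds differed at 1 member, Ddit3 (-0.60). Ppp1r15a, the phosphatase subunit that restores translation initiation (ENSMUSG00000040435, chromosome 7, 45522916 to 45526268), was at 111.1 and 109.8 CPM in 6G-10, 105.8 and 101.1 in 6G-30, 83.3 and 99.1 in 6S-10, and 15.2 and 17.8 in 6S-30. Of the 4 groups 6S-30 stands alone, and the steps differed by -2.37 (SE 0.16, 95% interval -2.71 to -2.04, adjusted p = 5.75e-08).

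Trib3, a pseudokinase gene, and Ddit3, which encodes the transcription factor CHOP, had step differences of -1.82 and -1.33, and Atf3, a repressor that is also an immediate early gene, one of -1.0. Ddit3 was at 141.8 and 146.0 CPM in 6G-10, 123.7 and 155.7 in 6G-30, 91.5 and 98.2 in 6S-10, and 34.4 and 39.0 in 6S-30. Members that serve amino acid transport and glutathione breakdown were not called: the step difference was -0.11 for the cystine transporter gene Slc7a11 (95% interval -0.42 to 0.20) and -0.88 for Chac1 (-1.79 to 0.04). The amino acid response element core TGATGNAA stood before 4.13% of genes with a lower step difference, 2.13% of those with a higher one and 2.42% of all.

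Immediate early genes and the phosphatases of MAP kinases respond fast to signalling. Of 29 measured members 16 were lower and 0 higher, against 5.45% and 6.28% of all genes, with a median of -0.79. The compounds differed by a median of 0.01 at 10 µM. The count was 7 without replicate 2 of 6S-10 and 9 without replicate 1 of 6G-30. Ier3, an early response gene, was at 147.8 and 131.8 CPM in 6G-10, 115.6 and 125.2 in 6G-30, 121.4 and 130.6 in 6S-10, and 47.3 and 40.0 in 6S-30, a step difference of -1.31. Jun, a subunit of AP-1, differed by -1.01, with a compound difference of 0.17 at 10 µM that was not called. Of 19 measured p53 targets 4 were lower and 0 higher, against 5.45% and 6.28% of all genes. The lower ones were Sesn2, which is also on the ATF4 list, Bbc3, Plk2 and Mdm2, the last named after its values were seen. Cdkn1a, the cell cycle inhibitor best known as a p53 target, differed by -0.25 (95% interval -0.59 to 0.10) and was not called.

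The list with most members higher was that of DNA replication and entry into S phase. Like the other lists it was chosen with earlier results of these data known. Of its 50 measured members 41 had a higher step difference and 0 a lower one, against 6.28% and 5.45% of all genes, with a median of 0.97. From 10 to 30 µM of 6-shogaol 48 of the 50 rose, against 11.5% of all genes (median 0.95). For 6-gingerol 0 were called (median 0.01). At 10 µM the compounds differed at 1, the thymidylate synthase gene Tyms (-0.46), named after its values were seen. Across all 18 alternatives 31 to 46 members were called higher and 0 lower.

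Ccne2, which encodes cyclin E2 (ENSMUSG00000028212, chromosome 4, 11191351 to 11204779), was at 16.5 and 18.1 CPM in 6G-10, 15.6 and 15.8 in 6G-30, 18.2 and 14.6 in 6S-10, and 52.4 and 62.9 in 6S-30. The 6 libraries other than 6S-30 are within a narrow range, far under it. The step difference was 1.96 (SE 0.19, 95% interval 1.56 to 2.36, adjusted p = 4.42e-06). Mcm4, a subunit of the replicative helicase (ENSMUSG00000022673, chromosome 16, 15623897 to 15637400), was at 77.2 and 86.1 CPM in 6G-10, 80.3 and 83.3 in 6G-30, 76.3 and 75.8 in 6S-10, and 218.2 and 241.4 in 6S-30, a step difference of 1.59.

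The helicase subunit genes Mcm6 and Mcm5 had step differences of 1.48 and 1.45, and Cdc6, which loads that helicase, one of 1.62. Rrm1, a subunit of the enzyme that makes deoxyribonucleotides, differed by 1.54. Repair genes were among those with the largest step differences. Rmi2, a subunit of the BLM helicase complex, was at 2.16 and 1.91 CPM in 6G-10, 1.71 and 1.47 in 6G-30, 1.99 and 2.32 in 6S-10, and 9.38 and 7.59 in 6S-30, a step difference of 2.33. Dscc1, which helps load the replication clamp, Rad54b, a recombination gene, and Fancb, of the Fanconi pathway, had step differences of 2.05, 1.81 and 1.49.

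Stretches of promoter are shown for Mcm6 and Cdc6 because 28.2% of the replication genes with a window hold an E2F site. The match is in capitals, Mcm6 lies at chr1:128359725-128359772 on the minus strand and Cdc6 at chr11:98907993-98908040 on the plus strand, both on GRCm38.p6.
Mcm6: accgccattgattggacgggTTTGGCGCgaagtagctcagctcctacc
Cdc6: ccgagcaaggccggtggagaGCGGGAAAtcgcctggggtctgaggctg
The matches end 40 and 131 bases before the start annotated in RefSeq. The stretch of Cdc6 lies inside the gene as positioned by GENCODE, from 98907801 to 98923940. The letters searched on both strands were TTTCCCGC, TTTCGCGC, TTTGCCGC and TTTGGCGC, without regard to overlap with other motifs, and the match in Cdc6 is on the opposite strand. They stood before 11 of 39 replication genes with a window, 8.18% of genes with a higher step difference, 3.14% of those with a lower one and 4.10% of all tested genes with a window.

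Of 32 measured genes of G2 and mitosis 14 were higher and 0 lower, against 6.28% and 5.45% of all genes, with a median of 0.33. Cdk1, the kinase that starts mitosis, was at 104.5 and 100.4 CPM in 6G-10, 87.1 and 107.3 in 6G-30, 98.5 and 92.2 in 6S-10, and 171.3 and 181.8 in 6S-30, a step difference of 0.96. Bub1, a spindle checkpoint kinase, and Ccna2, cyclin A2, differed by 0.80 and 0.66. The proliferation marker Mki67 differed by 0.35 (95% interval -0.01 to 0.72) and was not called. The count of higher members was 4 without replicate 2 of 6S-10 or of 6S-30, 6 without replicate 1 of 6G-30 or of 6S-10, and 6 when scaled by library totals.

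**Figure D3:**
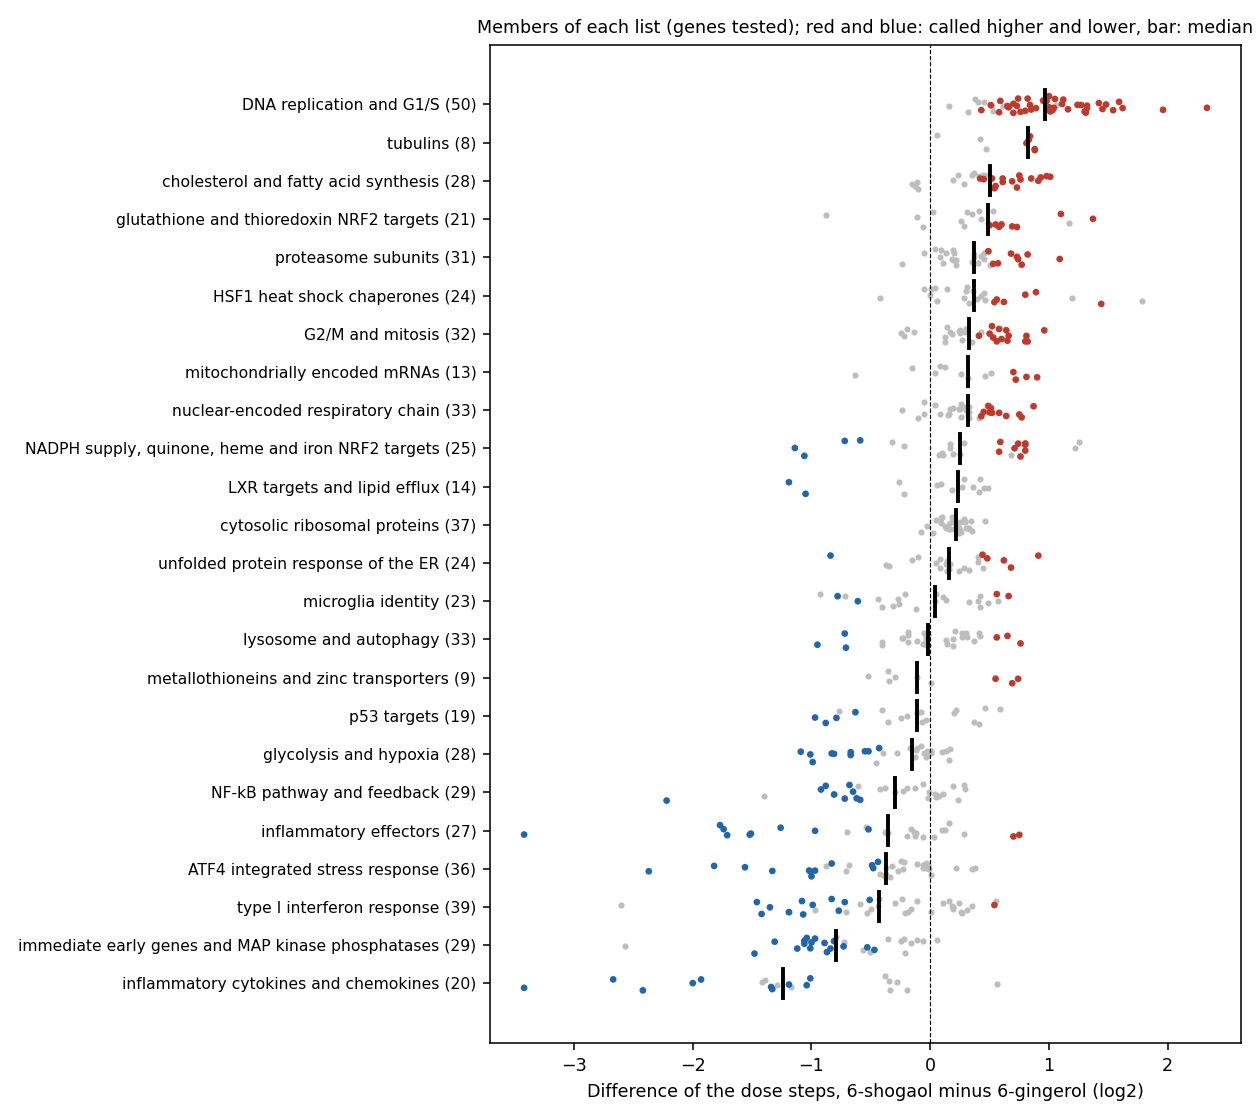
Step difference of every measured member of each gene list on the log2 scale, with red and blue dots for members called higher and lower, grey dots for the others, a black bar at the median and the number measured in brackets. The replication list has its median at 0.97 and the cytokine list at -1.24, while ribosomal proteins gather near 0.22 with 0 called.

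NRF2 targets did not move as a block. Over all genes 6.28% had a higher step difference and 5.45% a lower one. Of 21 measured genes of the glutathione and thioredoxin branch 8 were higher and 0 lower, with a median of 0.49, but 5 were higher without replicate 1 of 6G-30, 4 without replicate 1 of 6S-10 and 3 without replicate 2 of 6S-10. Gclm, the modifier subunit of glutathione synthesis (ENSMUSG00000028124, chromosome 3, 122245557 to 122270732), was at 63.6 and 63.3 CPM in 6G-10, 62.0 and 58.7 in 6G-30, 70.8 and 63.8 in 6S-10, and 139.5 and 135.4 in 6S-30. Only 6S-30 stands apart from the other 3 groups, and the steps differed by 1.10 (SE 0.14, adjusted p = 7.6e-05). Prdx1, a peroxiredoxin, differed by 1.37.

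The catalytic subunit Gclc took another course: it was at 18.1 and 24.2 CPM in 6G-10, 25 and 26.6 in 6G-30, 31.5 and 30.8 in 6S-10, and 49.3 and 57.1 in 6S-30. It differed between the compounds at 10 µM by 0.56 (adjusted p = 0.0429) and at 30 µM by 1.04, and its step difference of 0.49 (95% interval 0.10 to 0.87) was not called. Slc7a11 was at 61.1 and 66.1 CPM in 6G-10, 74.1 and 71.3 in 6G-30, 90.1 and 78.6 in 6S-10, and 84.2 and 94.3 in 6S-30. Srxn1, which repairs peroxiredoxins, and Txnrd1, thioredoxin reductase, had step differences of 0.41 (95% interval 0.13 to 0.69) and 0.28 (-0.00 to 0.56) that were not called.

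Among 25 measured NRF2 targets for NADPH supply, quinones, heme and iron 8 were higher and 4 lower, against 6.28% and 5.45% of all genes. Their median was 0.25. The higher ones included G6pdx and Me1, which supply NADPH (both 0.80), and the catalase gene Cat (0.74). The lower ones were Maff and Mafg, partners and repressors of NRF2 (-1.14 and -0.59), Sqstm1, an autophagy receptor (-0.72), and Osgin1 (-1.06). Osgin1 was near 4 CPM and was called in 8 of the 17 alternatives that tested it. Without replicate 2 of 6S-10 the counts were 5 higher and 2 lower. Hmox1, the heme oxygenase gene, was at 516.7 and 500.5 CPM in 6G-10, 511.1 and 531.7 in 6G-30, 523.3 and 526.3 in 6S-10, and 473.2 and 391.4 in 6S-30, with a step difference of -0.32 (95% interval -0.64 to 0.01) that was not called. Nqo1 stayed at or under 1.1 CPM. The antioxidant response element core TGACNNNGC stood before 15.1% of genes with a higher step difference, 16.7% of those with a lower one and 14.0% of all.

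Chaperone genes driven by HSF1 were higher at 6 of 24 measured members and lower at 0, with a median of 0.37, and 3 were higher without replicate 2 of 6S-10 or of 6S-30. Hspa8, the constitutive HSP70 chaperone (ENSMUSG00000015656, chromosome 9, 40800984 to 40810087), was at 716.2 and 713.1 CPM in 6G-10, 702.5 and 763.3 in 6G-30, 875.2 and 872.0 in 6S-10, and 2401.7 and 2455.1 in 6S-30. All libraries of 6S-30 lie far above the rest, and the steps differed by 1.44 (SE 0.15, adjusted p = 1.09e-05). Hsph1, its nucleotide exchange factor, and Hsp90aa1, the inducible HSP90 chaperone, differed by 0.89 and 0.80. The inducible HSP70 genes Hspa1a and Hspa1b stayed at or under 1.4 and 2.31 CPM, share reads as near-identical copies and were not called. The co-chaperone gene Dnajb1 differed by 0.43 (95% interval 0.05 to 0.82) and was not called. Beside the 6 of 24 members called higher stand 6.28% of all genes. The heat shock element core GAANNTTC stood before 6.71% of genes with a higher step difference, 3.34% of those with a lower one and 6.04% of all.

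Of 31 measured proteasome subunit genes 9 were higher and 0 lower, with a median of 0.37, and 5 were higher without replicate 1 of 6G-30, replicate 2 of 6S-10 or replicate 2 of 6S-30. Psmd1, a scaffold of the regulatory particle, was at 107.4 and 93.8 CPM in 6G-10, 96.1 and 95.9 in 6G-30, 108.0 and 108.6 in 6S-10, and 217.4 and 222.9 in 6S-30, a step difference of 1.09. In the unfolded protein response of the endoplasmic reticulum 5 of 24 genes were higher and 1 lower, against 6.28% and 5.45% of all genes. The same shares stand beside the proteasome count. Sec61b, of the protein channel, had a step difference of 0.91 and Ern1, which encodes the sensor IRE1, one of -0.84. The count of higher members was 2 or 3 without replicate 1 or 2 of 6S-10, replicate 1 or 2 of 6S-30, replicate 1 of 6G-30 or replicate 1 of 6G-10.

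Genes of cholesterol and fatty acid synthesis, with a median of 0.50, were higher at 16 of 28 measured members and lower at 0. Over all genes 6.28% were higher and 5.45% lower. The count of higher members was smaller without replicate 1 or 2 of 6S-10 or replicate 2 of 6S-30. Insig1, a sterol-regulated brake on the pathway, was at 113.3 and 114.4 CPM in 6G-10, 113.8 and 121.2 in 6G-30, 152.5 and 145.0 in 6S-10, and 265.5 and 287.6 in 6S-30. It was the member called at 10 µM (0.39, adjusted p = 0.0449) and had a step difference of 0.85. Fdft1, squalene synthase, and Msmo1, a sterol oxidase, differed by 0.98 and 0.75. Of 14 measured LXR targets 2 were lower, the cholesterol exporter Abca1 (-1.05) and Nr1h3, which encodes LXR alpha (-1.19), and 0 were higher. Over all genes 5.45% were lower, so 2 among 14 says little about the list. Nr1h3 was not called without replicate 1 of 6G-30 or replicate 2 of 6S-10. The sterol response element TCACNCCAC stood before 1.15% of genes with a higher step difference, 1.57% of those with a lower one and 1.17% of all.

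Hypoxia-responsive genes made up most of the lower members of the glycolysis list and its glycolytic enzymes, except the hexokinase gene Hk2 (-0.67, named after its values were seen), were not called. Of 28 measured members 10 were lower and 0 higher, against 5.45% and 6.28% of all genes, with a median of -0.15. The count was 4 without replicate 2 of 6S-10, 5 without replicate 2 of 6S-30 and 6 without replicate 1 of 6G-30. Ero1l, which oxidizes proteins in the endoplasmic reticulum, was at 783.9 and 789.3 CPM in 6G-10, 710.8 and 684.8 in 6G-30, 842.1 and 961.8 in 6S-10, and 418.4 and 385.2 in 6S-30, a step difference of -0.99. Ndrg1, a hypoxia-induced gene, and Vegfa, the endothelial growth factor, differed by -1.09 and -0.83. Gapdh, a glycolytic enzyme often used as a reference, differed by 0.01 (95% interval -0.37 to 0.38).

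Nuclear genes of the respiratory chain were higher at 11 of 33 measured members, against 6.28% of all genes, with a median of 0.32. That count was 3 without replicate 1 of 6G-30 or replicate 2 of 6S-10, 4 without replicate 1 of 6G-10 or replicate 2 of 6S-30, and 5 without replicate 1 of 6S-10. It was 3 when scaled by library totals or with all 12 libraries, and 4 on the authors' normalized table. Among 13 mitochondrially encoded mRNAs 4 were higher, against 6.28% of all genes, with a median of 0.32. The median 6-gingerol step of the 13 was -0.45 and their median 6-shogaol step -0.04. Their summed level was 68865.6 and 60238.8 CPM in 6G-10, 44915.1 and 51064.7 in 6G-30, 47349.6 and 47099.4 in 6S-10, and 51505.9 and 63063.0 in 6S-30. The 6G-10 libraries are thus the high ones of the 6-gingerol pair. Without replicate 1 of 6G-10, the library that stood alone on the third component, 3 were higher with a median of 0.24. Without replicate 1 of 6G-30 there were 2, and without replicate 2 of 6S-10 or of 6S-30 only 1.

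The gene called for the 6-gingerol dose step was one of these 13. The complex I subunit gene mt-Nd3 (mitochondrial genome, 9459 to 9806) was at 98.3 and 73.2 CPM in 6G-10, 46.5 and 36.6 in 6G-30, 76.7 and 68.8 in 6S-10, and 43.7 and 40.8 in 6S-30. It fell by 1.05 with 6-gingerol (adjusted p = 0.0227) and by 0.78 with 6-shogaol, and the step difference of 0.26 (95% interval -0.16 to 0.69) was not called. The 6-gingerol call was absent without either replicate 1 of 6G-10 or replicate 2 of 6G-30. Cytosolic ribosomal protein genes had 0 of 37 called in either direction, with a median of 0.22.

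Some of the largest step differences belonged to none of these programs. S100a11, a calcium-binding protein gene (ENSMUSG00000027907, chromosome 3, 93520488 to 93526287), was at 44.0 and 46.0 CPM in 6G-10, 34.0 and 42.0 in 6G-30, 29.5 and 32.0 in 6S-10, and 116.4 and 111.3 in 6S-30, a step difference of 2.13 (SE 0.16). S100a4, of the same family, was at 68.4 and 69.6 CPM in 6G-10, 56.9 and 63.4 in 6G-30, 73.4 and 64.4 in 6S-10, and 225.4 and 220.7 in 6S-30, one of 1.89. In the other direction, the long noncoding host of small nucleolar RNAs Snhg12 was at 57.4 and 62.5 CPM in 6G-10, 57.0 and 67.7 in 6G-30, 52.2 and 48.0 in 6S-10, and 9.62 and 9.45 in 6S-30, a step difference of -2.45. All 3 were called in each of 18 alternatives.

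Tubulin genes were higher at 5 of 8 measured members, against 6.28% of all genes, with a median of 0.82. Tubb4b was at 187.7 and 154.5 CPM in 6G-10, 157.5 and 161.4 in 6G-30, 152.7 and 161.0 in 6S-10, and 278.6 and 258.9 in 6S-30, a step difference of 0.88. Tuba1a, Tuba1b and Tuba1c differed by 0.88, 0.84 and 0.81, and as near-identical copies they may have shared reads. The actin gene Actb differed by 0.40 (95% interval 0.02 to 0.79) and was not called. The metallothionein genes Mt1 and Mt2, which bind zinc, differed by 0.74 and 0.55. Neither was called without replicate 1 of 6G-30 or replicate 2 of 6S-10, and Mt2 was called in 10 of 18 alternatives.

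Of 23 measured markers of microglial identity 2 were higher and 2 lower, with a median of 0.04, which is near the shares over all genes (6.28% and 5.45%) and no result about the list. Tyrobp, a signalling adaptor, was higher by 0.66, and Mef2c, a transcription factor, by 0.56. Csf1r, the receptor for colony-stimulating factor and a lower member, differed by -0.78. Without replicate 2 of 6S-10 none of the 4 was called, and without replicate 2 of 6S-30 only Tyrobp was. Without replicate 1 of 6G-30 or of 6S-10, or replicate 1 of 6G-10, 1 member was higher. The summed level of 12 microglial markers was 1924.8 to 2133.6 CPM in the 8 libraries. Lysosome and autophagy genes were higher at 3 of 33 and lower at 3, likewise near the shares over all genes. The lower ones, Tfeb and Mitf, which are transcription factors of lysosome genes, and Sqstm1, had step differences of -0.95, -0.71 and -0.72. The count of higher ones was 0 or 1 without replicate 1 of 6G-10, replicate 1 of 6G-30, replicate 2 of 6S-10 or replicate 2 of 6S-30. Of 3 measured fibroblast and endothelial markers the collagen gene Col1a1 was lower, but it never passed 1.26 CPM and was called in 9 of 16 alternatives.

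At 3 genes the compounds differed at both doses in opposite directions. S100a11 was lower with 6-shogaol at 10 µM (-0.55, adjusted p = 0.0216) and higher at 30 µM (1.58). The repair gene Fignl1, at 42.6 and 39.6 CPM in 6G-10, 37.0 and 35.6 in 6G-30, 28.9 and 30.3 in 6S-10, and 64.9 and 77.6 in 6S-30, went from -0.47 (adjusted p = 0.0474) to 0.97. Irf2bp2, a transcriptional cofactor, went the other way, from 0.50 (adjusted p = 0.0397) to -0.36 (adjusted p = 0.0291). It was at 97.9 and 98.6 CPM in 6G-10, 124.7 and 102.4 in 6G-30, 141.4 and 136.1 in 6S-10, and 98.9 and 78.4 in 6S-30, and is named after its values were seen. Crossings of this kind rest in part on calls at 10 µM, which were few and varied with the libraries used.

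**Figure D4:**
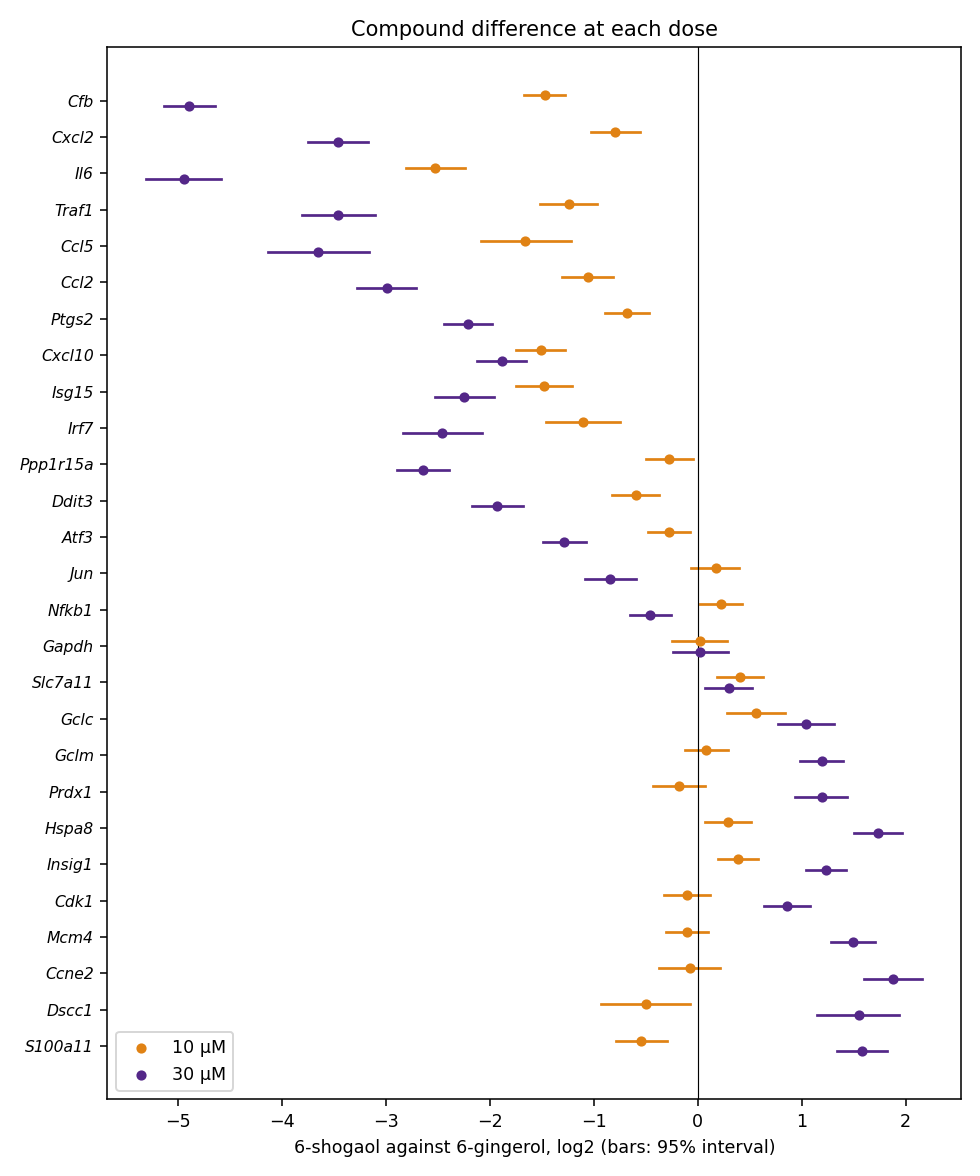
Difference of 6-shogaol against 6-gingerol at 10 µM (orange) and 30 µM (purple) for 27 genes on the log2 scale, with 95% intervals as bars. The points of Cxcl10, Slc7a11 and Gapdh lie close together at the doses, those of Cfb and Il6 move further to the left at 30 µM, and those of S100a11 lie on opposite sides of 0.

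Step differences varied with the length and level of the gene. From the shortest to the longest quartile of genes the median went from 0.12 through 0.04 and -0.01 to -0.11. In the shortest quartile (up to 1483.6 bases) 263 genes were higher and 86 lower, and in the longest (from 3608.9 bases) 116 were higher and 272 lower. Fragment lengths were 252.3 and 231.2 bases in 6G-10, 249.2 and 223.1 in 6G-30, 247.0 and 247.9 in 6S-10, and 235.6 and 244.1 in 6S-30. With fragment length as a covariate 1546 genes were called, 815 higher and 731 lower, and the part of transcript length in the calls was not tested. The share called was 5.12% in the quartile of genes with the lowest level and 18.5% in that with the highest. The median 95% interval of a step difference reached 0.38 to either side, so smaller differences of single genes were mostly not detectable at this depth.

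**Figure D5:**
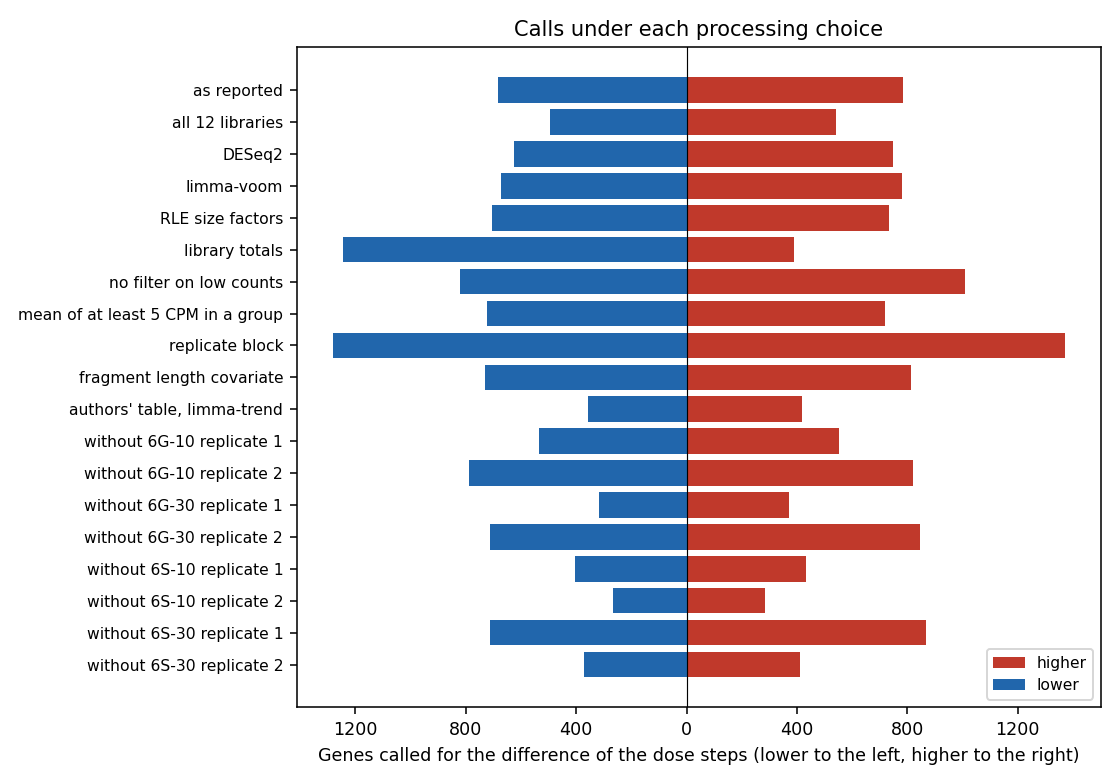
Number of genes called for the step difference under each processing choice, lower to the left in blue and higher to the right in red. Bars are shortest when replicate 2 of 6S-10 is left out (552 genes) and longest with the replicate number as a block (2650 genes), and scaling by library totals is the choice that tilts the split, to 389 higher and 1246 lower.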

How the data were processed

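RNA was sequenced from BV2 cells as stranded TruSeq mRNA libraries, paired-end, per the labels' protocols. The authors deposited per-library RSEM gene tables whose expected count, per the file headers, is the value used here, and 7.03% of expected counts are not whole. Gene lengths, effective lengths and transcript lists are, per the file headers, further columns, of which the lengths (in bases) gave the fragment length. The authors also deposited a table of a normalized signal for 18013 genes, whose normalization is not given in the sources used here. It served as an alternative, as log2(signal + 1). Tools in the submitters' processing notes, given without a role, are RSEM 1.3.3 and STAR 2.7.11b, DESeq2 1.44.0 and R 4.4.2, FastQC 0.12.1 and Trimmomatic 0.39, with the build GRCm38. The strand setting of the counting is not given there.

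Of 43432 gene identifiers 97.8% had a symbol in GENCODE M21, which also gave positions. Expected counts of the 8 libraries were rounded, filtered with filterByExpr, scaled by TMM and fitted with 4 group means in edgeR 4.0.16 (R 4.3.3), leaving 4 residual degrees of freedom (common biological coefficient of variation 8.77%). Adjusted p-values come from the 2-sided edgeR quasi-likelihood test, with Benjamini-Hochberg adjustment over the 12512 genes tested. Intervals are 95%. CPM are on the TMM scale. The procedure was tested on simulated data. Genes named are the 12 with the largest step difference in each direction (at least 5 CPM in a group, 6-shogaol doses not overlapping), up to 3 called per list and direction, a fixed panel, genes called for the 6-gingerol step, and up to 8 per class of opposite steps or of opposite difference at 10 µM. Members, lists and panel were chosen with earlier results of these data known. Settings tried as alternatives were all 12 libraries, DESeq2 1.42.0, limma-voom (limma 3.58.1), RLE factors, library totals, no filter, a filter at 5 CPM, the replicate block, a fragment length covariate, the authors' table and each of the 8 libraries left out. Promoters are RefSeq windows on GRCm38.p6, matched by symbol. Some genes on the lists were counted but are not reported here by name.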

Additional observations from a re-analysis of the deposited data

Results flagged for a closer look

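The dose step itself differed between the compounds, by a test of the difference, at 1468 of 12512 genes: the same rise in dose, from 10 to 30 µM, changed 2796 genes with 6-shogaol and 1 with 6-gingerol. Within groups of 2 libraries no rule for a sample far from its own group could be applied.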

How the results depend on the processing

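The step difference gave 1468 calls, with 1038 to 1829 in 8 of the other settings, 2650 with the replicate block, 773 on the authors' table, and 552 to 1610 with 1 library left out. Genes shared with the reported calls had the same sign in each of 18 alternatives. All of these reuse the same libraries, so like signs are no independent support. Where no library was left out, the shared part ran from 48.6% of the reported calls (authors' table) to 99.7% (replicate block). The 6-shogaol step (2796) gave 1243 to 3132 with 1 library left out, and 990 higher and 1706 lower by library totals. The 6-gingerol step (1) gave 6 with DESeq2, 0 by library totals, 17 without the filter, 10 with the replicate block, 2 with the fragment length covariate and 0 to 5 with 1 library left out. The compounds at 10 µM (192) gave 81 with all 12 libraries, 576 without the filter, 1083 with the replicate block, 49 on the authors' table and 34 to 332 with 1 library left out. There the split was 171 higher and 81 lower by library totals against 49 and 143, 10 and 71 with all 12 libraries, and 227 and 349 without the filter. At 30 µM (3491) leaving out 1 library gave 2249 to 3762. No called gene named here changed direction. The labels do not say that a replicate number marks a shared batch. Deviations from group means correlated at -0.04 to 0.19 over the 6 pairs of groups, at 0.14 or more in 4, and replicate 2 lay above replicate 1 on the second principal component in all 4 groups. Whether the numbers pair the libraries is thus unsettled, and the block is given as a check. With 1 library left out, its group's other library was assumed to vary like the other groups. The cause of these shifts was not tested, except that a left-out library also removes a degree of freedom.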

Other observations

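Genes whose 6-gingerol step went against the 6-shogaol step by at least 0.25 on the log2 scale included 2 further regulators of growth. Mxd1, which opposes Myc, was at 35.7 and 37.7 CPM in 6G-10, 48.2 and 42.4 in 6G-30, 46.5 and 46.8 in 6S-10, and 28.7 and 27.7 in 6S-30, a step difference of -1.03 (adjusted p = 0.000368 in edgeR). Mastl, a mitotic kinase, was at 31.0 and 32.4 CPM in 6G-10, 26.1 and 26.6 in 6G-30, 26.1 and 27.0 in 6S-10, and 43.0 and 48.0 in 6S-30, a step difference of 1.04. The 6-gingerol steps of both, 0.30 and -0.27, were not called. The zinc finger gene Gm14308, in a family of near-identical copies that can share reads, was at 1.78 and 1.8 CPM in 6G-10, 0.31 and 0.758 in 6G-30, 0.937 and 0.676 in 6S-10, and 2.07 and 3.09 in 6S-30.

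By gene class, antisense genes had a lower step difference at 15 of 256 tested and a higher one at 2. Long intergenic noncoding RNAs had 10 lower and 2 higher of 240. The lower counts are near the share over all genes (5.45%), and only the higher counts are small beside theirs (6.28%). Protein-coding genes had 629 lower and 762 higher of 11211. Without a stated strand setting, reads of an antisense gene cannot be told from those of its partner.

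The phosphatase gene Acp5 had few reads in 6S-30: it was at 3.44 and 2.51 CPM in 6G-10, 3.57 and 4.6 in 6G-30, 2.34 and 2.03 in 6S-10, and 0.183 and 0.169 in 6S-30, so no fold is given.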
